A study of Homo sapiens with 4 samples.

Results

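The cytosolic ribosomal protein genes were examined at their promoters in the ZNF217 CUT&Tag peak lists of MV4-11 and U937. Members were taken by symbol from the protein-coding genes of GENCODE 44 on chromosomes 1 to 22 and X: RPL or RPS with digits and an optional A, L or X suffix, together with RPLP0, RPLP1, RPLP2 and RPSA, without the RPS6K kinases and without pseudogenes. The rule gave 85 of 19970 genes, of which 53 code for proteins of the large subunit and 32 for proteins of the small subunit, and 8 are L paralogs (RPL3L, RPL7L1, RPL10L, RPL22L1, RPL26L1, RPL36AL, RPL39L and RPS27L). The other 19885 genes served for comparison. MV4-11 and U937 are established human myeloid leukemia lines with monocytic features, MV4-11 with a KMT2A fusion and U937 with a PICALM fusion, and both were untreated. CUT&Tag uses a transposase tethered to an antibody to cut and tag DNA near the protein of interest, here ZNF217, a zinc finger transcription factor. Each line had 1 ZNF217 library, and the 2 IgG libraries are not analysed here. The lists held 37635 peaks in MV4-11 and 22521 in U937 as positions on hg38 without height, score or read count, so width stands for size, depth is unknown, no difference could be set against replicate error, and all intervals are 95% intervals of counting error over genes or peaks. Of 10 myeloid marker genes, 8 in MV4-11 and 5 in U937 had a promoter peak, with LYZ and CSF3R at 0 in both lines, against 2 and 1 of 5 T cell, 3 and 2 of 5 B cell, 1 and 0 of 5 erythroid and 1 and 0 of 5 hepatocyte markers in MV4-11 and U937.

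Ribosomal proteins build the small and large subunits of the ribosome that translates nuclear-encoded mRNAs, and most of their genes are transcribed at high rates in every growing cell. Their transcripts typically start at a cytosine inside a run of pyrimidines, which becomes the terminal oligopyrimidine (TOP) tract of the mRNA, the element through which mTOR signalling sets their translation. Many of the genes also carry small nucleolar RNAs (snoRNAs), which guide the modification of ribosomal RNA, in their introns.

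The promoters below are among those with the widest peaks over both lines, those with the narrowest, and those not occupied in both lines. Each sequence runs from 100 bases before the canonical transcription start site (TSS) to 20 bases from the TSS on, read from the hg38 genome at the GENCODE 44 canonical start, and capitals mark the run of C or T that holds the TSS.
RPL36 (widest, chr19:5690195-5690314, plus strand): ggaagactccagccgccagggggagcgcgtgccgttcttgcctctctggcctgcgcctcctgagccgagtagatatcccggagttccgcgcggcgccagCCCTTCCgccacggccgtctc
RPL13A (widest, chr19:49487508-49487627, plus strand): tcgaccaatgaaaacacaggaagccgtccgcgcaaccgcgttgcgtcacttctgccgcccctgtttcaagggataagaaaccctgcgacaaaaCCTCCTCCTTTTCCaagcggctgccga
RPSA (narrowest, chr3:39406620-39406739, plus strand): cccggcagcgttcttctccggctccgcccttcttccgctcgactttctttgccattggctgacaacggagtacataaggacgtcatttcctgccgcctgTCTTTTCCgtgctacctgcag
RPS24 (narrowest, chr10:78033763-78033882, plus strand): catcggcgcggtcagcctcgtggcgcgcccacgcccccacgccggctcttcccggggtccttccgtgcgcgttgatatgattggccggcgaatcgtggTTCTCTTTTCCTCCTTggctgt
RPL22L1 (narrowest, chr3:170870176-170870295, minus strand): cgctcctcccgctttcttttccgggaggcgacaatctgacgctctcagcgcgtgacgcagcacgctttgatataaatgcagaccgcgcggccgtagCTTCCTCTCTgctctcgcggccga
RPL10L (no peak in either line, chr14:46651762-46651881, minus strand): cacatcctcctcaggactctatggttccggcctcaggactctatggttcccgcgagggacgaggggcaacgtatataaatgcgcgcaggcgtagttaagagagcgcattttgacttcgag
RPS4X (peak in MV4-11 only, chrX:72277229-72277348, minus strand): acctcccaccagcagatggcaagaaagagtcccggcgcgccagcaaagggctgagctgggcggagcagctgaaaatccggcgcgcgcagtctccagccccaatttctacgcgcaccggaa
The run of pyrimidines was 7 bases in RPL36, 14 in RPL13A, 8 in RPSA, 16 in RPS24 and 10 in RPL22L1. The widest peak of RPL13A lay downstream of this promoter, which itself lay under narrower peaks (1447 bp in MV4-11, 1159 bp in U937). RPL10L and RPS4X start at a purine and have no capitals.

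Over all members, 59 of 85 (69.4%, exact interval 58.5 to 79.0%) had a C followed by 4 pyrimidines at the canonical TSS, against 4.59% of all 19970 canonical promoters and 6.41% of 78 mitochondrial ribosomal protein gene promoters. The TSS base itself was a pyrimidine in 75.3% of members and in 12.1% of all promoters. Members with and without this start had a median of 1160 and 1161 bp for the widest peak of the MV4-11 list, and 972 and 1168 bp for that of the U937 list. The median GC content of the 300 bases around the TSS (250 before, 50 from it on) was 60.0% in members, against 63.7% in all promoters, 66.3% in other promoters occupied in both lines and 59.7% in mitochondrial ribosomal protein genes.

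Both strands of these 300 bases were searched for a set of 11 short motifs. CCGGAAG, the core bound by ETS factors, was present in 30 of 85 members (35.3%, 25.2 to 46.4%), in 14.1% of all promoters, in 22.4% of other promoters occupied in both lines and in 41.0% of mitochondrial ribosomal protein gene promoters. AAGATGGC, a core bound by YY1, was present in 12.9% of members, in 4.06% of all promoters, in 6.66% of the other occupied promoters and in 28.2% of mitochondrial ribosomal protein gene promoters, and 10 of its 11 matches in members lay after the TSS. Both motifs were thus more frequent in members than in all promoters, and their shares in mitochondrial ribosomal protein genes were higher, with overlapping intervals. For AAGATGGC the members' interval held the share of the other occupied promoters. The palindromic CGCG element, a known element of ribosomal protein promoters, was found in 5 members (5.88%) against 0.631% of all promoters and 1.09% of the other occupied ones, with a median position 52 bases before the TSS. TGACGT, the core bound by CREB and ATF factors, was present in 17 of 85 members (12.1 to 30.1%) against 9.49% of all promoters and 12.8% of the other occupied ones. TGTGGT, the RUNX core, was present in 16.5% of members (9.31 to 26.1%), 10.7% of all promoters and 8.73% of the other occupied ones. The members' interval for TGTGGT held the share of all promoters.

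For the remaining motifs the members' interval also held the share of all promoters. The SP1 core GGGCGG was present in 60.0% of members (48.8 to 70.5%), in 61.3% of all promoters and in 75.2% of the other occupied promoters, so it was less frequent in members than in other promoters with a peak. The TATA box TATAAA was present in 9.41% of members (4.15 to 17.7%), in 9.73% of all promoters and in 4.62% of the other occupied ones. The NFY core CCAAT was present in 32.9% of members, 36.0% of all promoters and 36.9% of the other occupied ones. The E-box CACGTG was present in 7.06%, 8.75% and 11.1% of these groups, and the NRF1 consensus in 2.35%, 1.69% and 2.72%. The core of the published ZNF217 consensus, CAGAA after an A or a G, was present in 27.1% of members, 27.9% of all promoters and 23.5% of the other occupied ones. Members with and without it had median widest peaks of 1142 and 1217 bp in the MV4-11 list, and of 1128.5 and 1022 bp in the U937 list. These are matches of letters in a fixed window, and neighbouring matches may share bases.

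Nearly every member carried a ZNF217 peak. A promoter was called occupied when a peak overlapped 1 kb on each side of a TSS of any transcript of the gene. In MV4-11, 84 of 85 members were occupied (98.8%, 93.6 to 99.97%), against 59.0% of all protein-coding genes. In U937, 82 of 85 were occupied (96.5%, 90.0 to 99.3%), against 50.5%, and the same 82 were occupied in both lines, against 47.4%. A peak lay over the canonical TSS itself in 83 members in MV4-11 (48.9% of all genes) and in 79 in U937 (38.9% of all genes). Among occupied genes the canonical TSS was covered in 98.8% of members against 82.8% of other genes in MV4-11, and in 96.3% against 76.8% in U937.

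The exceptions were few. RPL10L, an intronless paralog of RPL10 used in the testis, had no promoter peak in either line. RPL3L, the striated muscle paralog of RPL3, had a single peak of 340 bp in MV4-11 that did not cover its canonical TSS, and none in U937. RPS4X, which codes for a small subunit protein on the X chromosome, had a peak of 479 bp over its TSS in MV4-11 (chrX:72277018-72277497) and none in U937. In U937 the promoters of RPL28, RPLP2 and RPS19 were occupied, but no peak covered the canonical TSS. RPLP2 is one of the acidic proteins of the ribosomal stalk, and RPS19 is the small subunit gene first linked to Diamond-Blackfan anaemia.

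Processed pseudogenes of ribosomal protein genes, which are reverse-transcribed copies that lack the parent promoter, were compared after the data were seen. A peak lay on 9 of 1521 of them (0.592%, 0.271 to 1.12%) in MV4-11 and on 4 of 1521 (0.263%, 0.0717 to 0.672%) in U937. Of 8486 other processed pseudogenes, 1.31% in MV4-11 and 0.896% in U937 had a peak. Reads from near-identical copies cannot be placed with certainty, and how they were treated is not given in the sources used here.

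The widest promoter peak of occupied members had a median width of 1160.5 bp in MV4-11 (interval 1028 to 1386 bp, quartiles 926.75 and 1825.25 bp), against 1083 bp for 11695 other occupied genes. In U937 the median was 1036.5 bp (911 to 1237 bp, quartiles 804.5 and 1351.75 bp), against 978 bp for 10009 other genes. The medians of the other genes lay inside both members' intervals, so the members' median width could not be told apart from that of other occupied promoters with this window. With a window of 3 kb the ratio of the members' median to that of other occupied genes was 1.19 (1.02 to 1.38) in MV4-11, which does not include 1, and 1.12 (0.971 to 1.31) in U937. Taking the peak over the canonical TSS in place of the widest, a choice made after the data were seen, gave 1092 bp in members against 1111 bp in others in MV4-11, and 1021 against 1026 bp in U937.

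Narrow peaks were less frequent in members in MV4-11, while the shares of wide peaks lay within counting error of those of all genes. Peaks of at least 2000 bp were the widest of 19 of 84 members (22.6%, 14.2 to 33.0%) in MV4-11, against 14.7% of all occupied genes, and of 6 of 82 (7.32%, 2.73 to 15.2%) in U937, against 7.62%. Peaks under 600 bp were the widest of 5 of 84 members (5.95%, 1.96 to 13.3%) against 16.5% of other genes in MV4-11, and of 9 of 82 (11.0%, 5.14 to 19.8%) against 17.2% in U937. Large subunit genes had a median of 1346 bp (1080 to 1597 bp) and small subunit genes one of 1059.5 bp (893 to 1217 bp) in MV4-11, and 1060 and 911 bp in U937, with overlapping intervals in both lines.

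**Figure D1:**
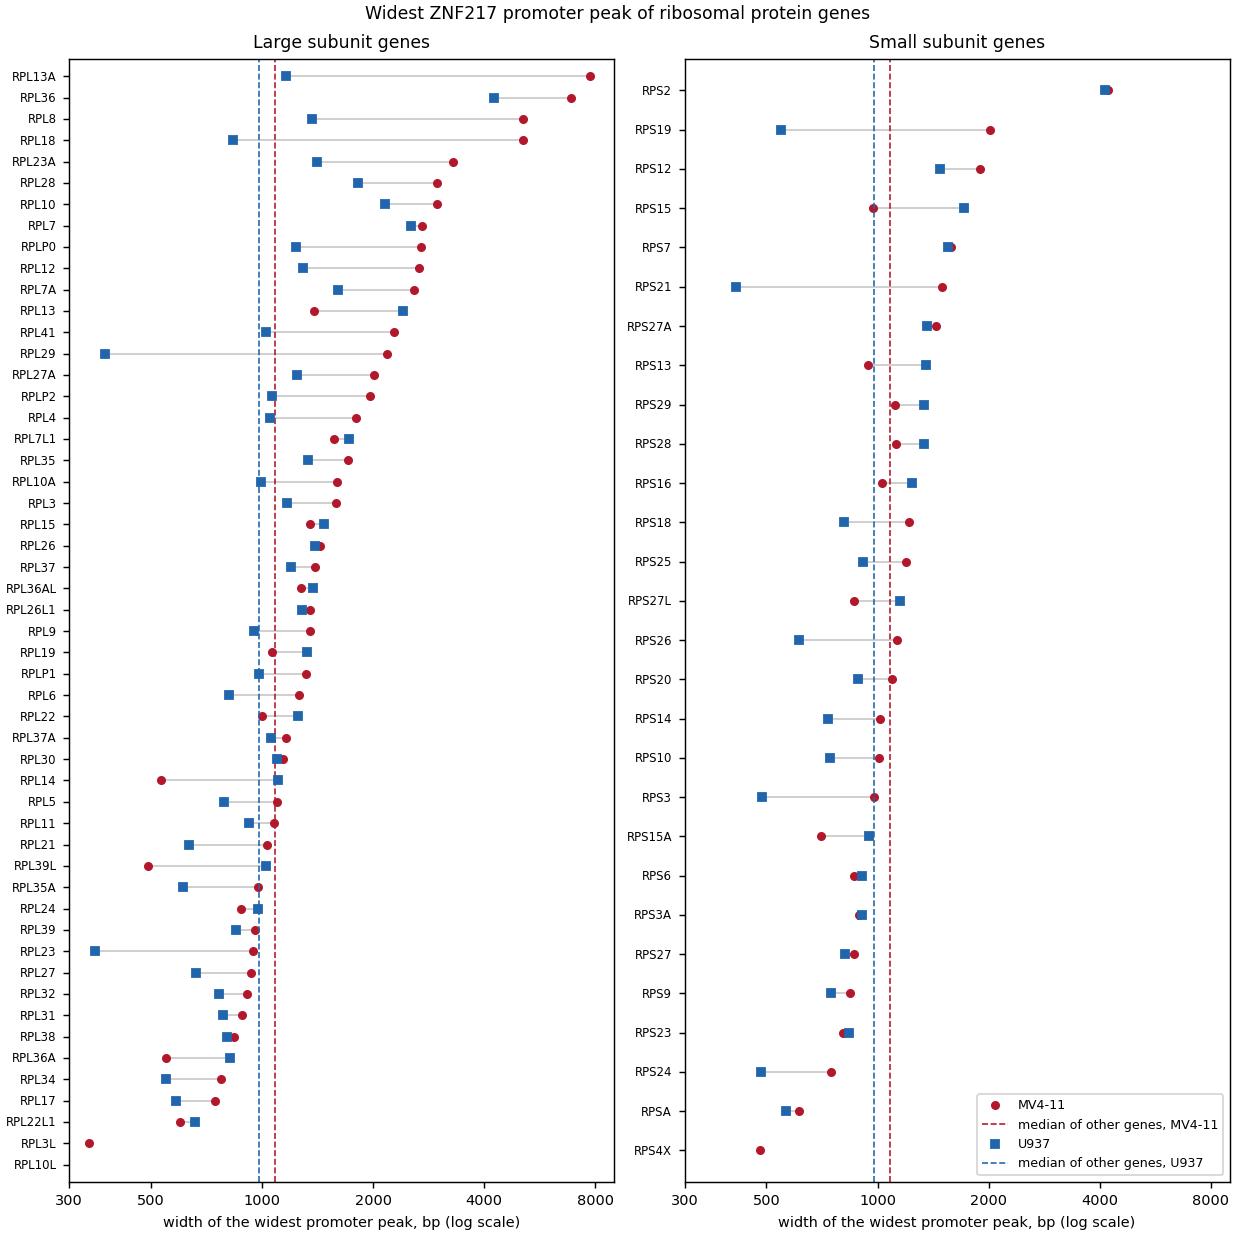
Width of the widest ZNF217 promoter peak of 80 ribosomal protein genes in bp on a log scale, with red circles for MV4-11, blue squares for U937 and dashed lines at the medians of other occupied genes (1083 and 978 bp). RPL13A stands at 7727 bp in MV4-11 and at 1159 bp in U937, and RPL10L has no point.

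The widest regions lay on chromosome 19. A single MV4-11 peak of 7727 bp ran through most of RPL13A, a large subunit gene that hosts 4 snoRNAs, and on downstream. RPL13A kept a separate peak of 1447 bp over its own TSS in MV4-11. In U937 it had a peak of 1159 bp over the TSS. Most of the RPL13A gene body was thus under a peak in MV4-11 and outside peaks in U937.

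RPL36, which codes for a large subunit protein, had a peak of 6864 bp in MV4-11 (chr19:5689837-5696701) and 4252 bp in U937 (chr19:5689911-5694163). Both covered 99.9% of its canonical transcript of 1581 bp and went on downstream. RPL18 had one of 5085 bp at its 3′ end (chr19:48611614-48616699), near the start of FAM83E, beside a TSS peak of 1040 bp in MV4-11, and a TSS peak of 832 bp in U937.

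Of the 12 members on chromosome 19, 8 had a widest peak of at least 2000 bp in MV4-11, against 11 of 72 occupied members elsewhere. Their median was 3272.5 bp in MV4-11, against 1134.5 bp for members on other chromosomes, and 1241 against 1009.5 bp in U937. Other genes on chromosome 19 had a median of 1380 bp in MV4-11, against 1066 bp for other genes elsewhere, and 1035 against 975 bp in U937. The wider peaks on this chromosome in MV4-11 were therefore not limited to members.

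Outside chromosome 19, RPL8 had 5094 bp in MV4-11 and 1363 bp in U937, and RPS2 had 4204 and 4139 bp. These peaks of RPS2, and that of RPL8 in MV4-11, did not cover the canonical TSS. Peaks over the TSS had 2322 and 1363 bp (RPL8) and 2510 and 871 bp (RPS2) in MV4-11 and U937. The widest U937 members after RPL36 and RPS2 were RPL7 (2535 bp, with 2715 bp in MV4-11) and RPL13 (2403 bp, with 1386 bp in MV4-11). RPL7 shares its promoter region with RDH10, a retinol dehydrogenase gene transcribed the other way.

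The narrowest members in MV4-11 after RPL3L and RPS4X were RPL39L (490 bp, a paralog of RPL39), RPL14 (532 bp) and RPL36A (550 bp). The narrowest in U937 were RPL23 (353 bp), RPL29 (374 bp), RPS21 (414 bp), RPS24 (484 bp) and RPS3 (485 bp). None of these genes was among the narrowest 5 in both lines. RPSA, the laminin receptor homologue of the small subunit, was narrow in both, with 614 bp in MV4-11 (chr3:39406435-39407049) and 564 bp in U937 (chr3:39406439-39407003).

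By role, the stalk genes had 2698 and 1237 bp (RPLP0), 1313 and 980 bp (RPLP1) and 1964 and 1066 bp (RPLP2) in MV4-11 and U937. The 2698 bp peak of RPLP0 lay at its 3′ end, and its peaks over the TSS had 1000 bp in MV4-11 and 1237 bp in U937. RPS27A, which is made as a fusion to ubiquitin, had 1437 and 1359 bp. RPS14, the small subunit gene lost in myelodysplastic syndrome with a deletion on the long arm of chromosome 5, had 1017 and 734 bp. A set of 8 Diamond-Blackfan anaemia genes (RPS19, RPL5, RPL11, RPL35A, RPS24, RPS7, RPS10 and RPS26) ranged between 749 and 2022 bp with a median of 1090 bp in MV4-11, and between 484 and 1550 bp with a median of 678 bp in U937. Each of the 8 was wider in MV4-11, with ratios between 1.02 (RPS7) and 3.68 (RPS19), as were 64.8% of all genes occupied in both lines. The set does not hold every gene linked to the disease, and RPL15, RPS28 and RPS29, which are also linked to it, had ratios of 0.915, 0.837 and 0.831. Of the genes found mutated in leukaemias, RPL10 had 2981 and 2147 bp, RPL22 had 1000 and 1252 bp, and RPS15 had 975 and 1715 bp. These peaks of RPL10 did not cover its canonical TSS, where the peaks had 1234 and 982 bp.

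Of the L paralogs, 7 of 8 were occupied in MV4-11 and 6 in U937, none with more than 1 promoter peak. RPL7L1 had 1570 and 1716 bp in MV4-11 and U937, RPL26L1 had 1347 and 1282 bp, and RPL36AL, which shares its promoter with MGAT2, had 1275 and 1370 bp. RPL22L1 had 600 and 656 bp, RPS27L, a gene induced by p53, had 866 and 1149 bp, and RPL39L had 490 and 1025 bp. RPL3L, with 340 bp in MV4-11, lay below the narrowest of the other members at 479 bp, and the other occupied paralogs lay within their range.

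Peaks over the TSS of members reached farther upstream than downstream at the median. The midpoint of the widest peak near the canonical TSS had a median offset of -33 bp in MV4-11 (interval -64.5 to 4 bp, upstream negative), against -2.5 bp for other genes, and of -98.75 bp in U937 (-139.5 to -15.5 bp), against 9 bp. The MV4-11 interval held the median of the other genes. The MV4-11 median was -9.5 bp with peaks under 500 bp apart merged and 4 bp with a window of 3 kb. Peaks over the TSS extended a median of 604 bp upstream (533 to 682 bp) and 448 bp downstream (411 to 530 bp) in members in MV4-11, against 518 and 514 bp in other genes. In U937 they extended 570 bp upstream (518 to 641 bp) and 409 bp downstream (361 to 449 bp) in members, against 489 and 476 bp. The reach was farther upstream in 53 of 83 members (63.9%, 52.6 to 74.1%) in MV4-11, against 50.8% of all covered genes, and in 50 of 79 (63.3%, 51.7 to 73.9%) in U937, against 48.8%. A reach of over 600 bp downstream was seen in 25 of 83 members against 41.9% of other genes in MV4-11, and in 16 of 79 against 38.2% in U937. Most ribosome biogenesis genes, among them NCL and NOP58, also had an upstream offset in both lines. The lean was therefore not particular to members.

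**Figure D2:**
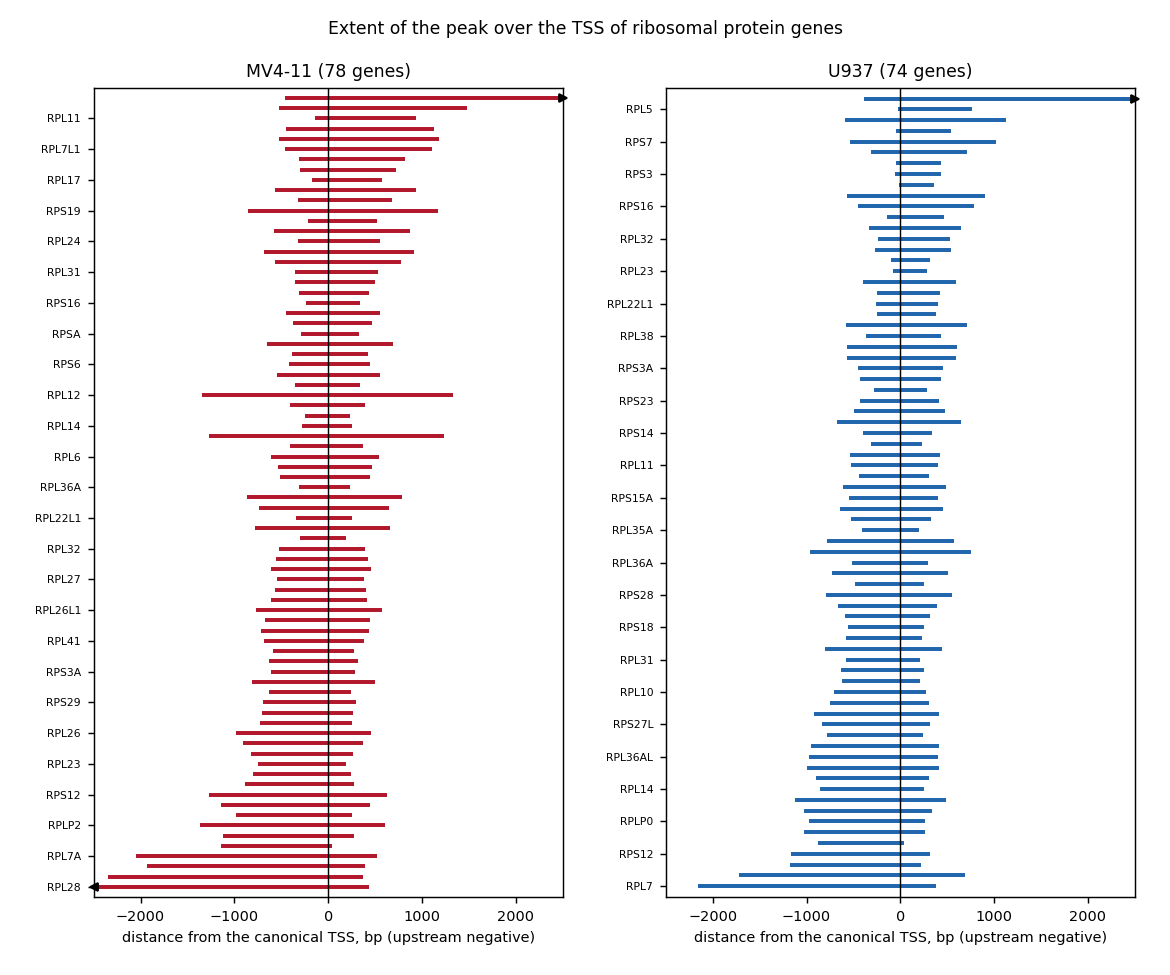
Extent of the peak over the canonical TSS of ribosomal protein genes, 78 in MV4-11 and 74 in U937, in bp from the TSS with upstream negative. Genes are ordered by the offset of the peak and not all are named, and arrowheads mark peaks that run past 2500 bp (RPL36 downstream in both lines, RPL28 upstream in MV4-11).

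The share of genes under a peak at each distance showed the same lean. At 500 bp upstream of the TSS, 65.5% of occupied members were under a peak in MV4-11 against 47.3% of other genes, and 63.4% against 43.7% in U937. At 500 bp downstream, 41.7% of members were under a peak in MV4-11 against 45.8% of other genes, and 29.3% against 41.7% in U937. Mitochondrial ribosomal protein genes, which code for the ribosome of the mitochondrion, were at 49.3% upstream and 42.7% downstream in MV4-11 and at 45.1% and 43.7% in U937.

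**Figure D3:**
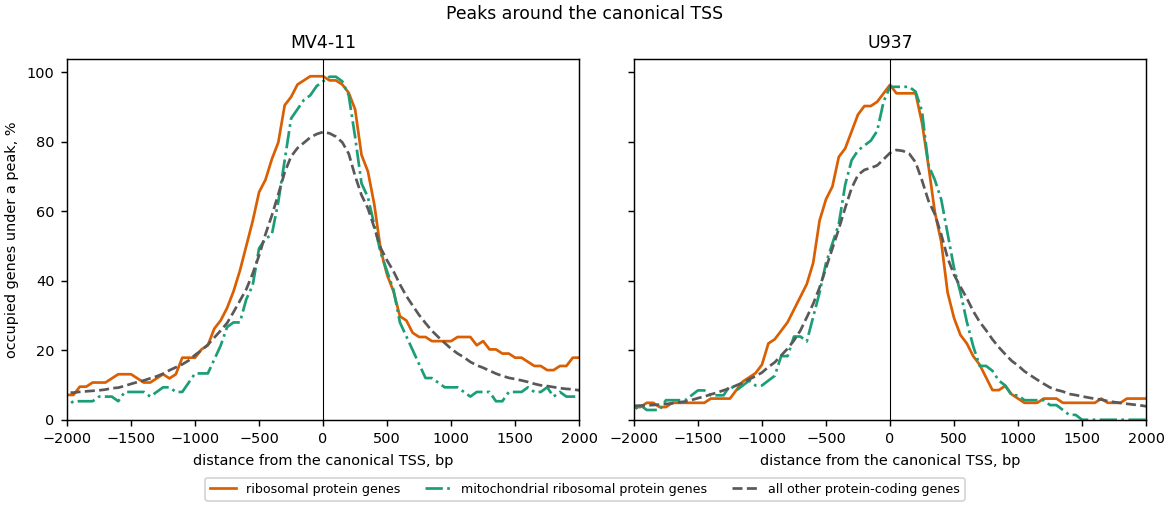
Share of occupied genes under a ZNF217 peak, in percent, at each distance from the canonical TSS in bp, for ribosomal protein genes, mitochondrial ribosomal protein genes and all other genes. At 500 bp upstream the ribosomal protein genes stand at 65.5% in MV4-11 and 63.4% in U937, above the other lines.

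Among the largest upstream offsets in MV4-11 were those of RPL28 (-1057 bp), RPL7 (-987.5 bp) and RPL7A (-764.5 bp). In U937 they included those of RPL28 (-1002 bp), RPL7 (-892.5 bp), RPLP2 (-563 bp) and RPL13 (-514.5 bp). RPL7 and RPL7A, which hosts 4 snoRNAs and shares its promoter with MED22, each have a gene starting in the opposite direction close upstream. Among the largest downstream offsets in MV4-11 were those of RPL8 (3322 bp), RPL36 (2974 bp), RPL41 (2129.5 bp) and RPL29 (2007.5 bp). In all of these but RPL36 the widest peak was a second region inside or past the gene. In U937 the downstream offsets were smaller, with RPL36 at 1742 bp followed by RPL5 (369 bp), RPL7L1 (270 bp), RPL17 (243.5 bp) and RPS7 (241 bp). The offset was upstream in both lines in 37 of 82 members, against 36.2% of all genes with an offset in both, and downstream in both in 17, against 36.6%.

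Within the family, features of the locus went with width to differing degrees. A neighbour transcribed in the opposite direction within 1 kb was annotated for 34 members, whose widest peaks had a median of 1346 bp (MV4-11) and 1082 bp (U937), against 1042 and 1008.5 bp for the other members. The 28 members that host snoRNAs (60 in all) had medians of 1388.5 bp (MV4-11) and 1128.5 bp (U937), against 1124 and 988 bp for non-hosts. Members with promoter GC content at or above the members' median had 1388.5 bp in MV4-11 and 1242 bp in U937, against 1090 and 911 bp for those below it. Because 1 library stands behind each value and the features overlap within genes, these differences are descriptions.

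More than 1 promoter peak was present at 32 of 84 members (38.1%, 27.7 to 49.3%) in MV4-11, against 27.9% of all occupied genes, and at 18 of 82 (13.6 to 32.5%) in U937, against 19.0%. Of these, 11 members in MV4-11 and 3 in U937 had 3 or more peaks. Members have a median of 8 annotated TSSs spread over 2040 bp, against 5 TSSs over 9598 bp for other genes, and counting only the canonical TSS left 13 members in MV4-11 and 6 in U937 with more than 1 peak. The shares of other genes at 3 or more peaks, or with the canonical TSS only, were not computed. These counts of members are therefore not compared with other genes. RPL3, which hosts 3 snoRNAs, had the most, with 6 peaks in MV4-11 and 3 in U937 and summed widths of 5148 and 2034 bp. RPL36 had 5 peaks (summed 11313 bp) in MV4-11 and 2 (5826 bp) in U937. RPL10 had 4 (7578 bp) and 2 (3129 bp).

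Among members with more than 1 promoter peak, other large sums in MV4-11 were those of RPL13A (9174 bp), RPL8 (7416 bp), RPL18 (6890 bp), RPS2 (6714 bp), RPL23A (5581 bp) and RPLP0 (4767 bp). In U937 they were those of RPS2 (5010 bp), RPS29 (2843 bp), RPL23A (1888 bp), RPL8 (1871 bp), RPL27A (1844 bp), RPS13 (1813 bp) and RPL9 (1640 bp). RPL23A hosts 4 snoRNAs.

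Peaks covered a larger part of members than of other genes, which are longer. The median share of the canonical transcript under peaks was 19.5% in members (14.5 to 26.4%) in MV4-11, against 2.96% in all other occupied genes and 16.0% in other occupied genes of 3 to 8 kb. In U937 it was 11.1% (7.64 to 15.2%), against 2.09% and 10.6%. The members of 3 to 8 kb had medians of 18.8% (14.4 to 26.4%, 54 genes) in MV4-11 and 9.19% (7.43 to 13.5%, 53 genes) in U937, with intervals that included the medians of the other genes of this length. At least 50% of the transcript was covered in 8 of these 54 members (14.8%) in MV4-11, against 11.2% of other genes of this length, and in 1 of 53 in U937, against 2.02%. Over members of all lengths, some under 3 kb, the count in MV4-11 was 16 of 84 (19.0%), against 4.44% of all other occupied genes. In U937 it was 3 of 82 (3.66%), against 1.91%. This measure and the comparison by length were chosen after the data were seen.

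Promoter peaks of members were mostly common to the lines. Of 134 unique promoter peaks of members in MV4-11, 107 (79.9%, 72.1 to 86.3%) overlapped a U937 peak by at least 1 bp, against 62.6% of all promoter peaks. Of 103 in U937, 101 (98.1%, 93.2 to 99.8%) overlapped an MV4-11 peak, against 87.0%, and the exceptions were side peaks of 336 bp at RPS21 and 688 bp at RPL9. The widest peak was shared for 80 of 84 members in MV4-11, against 77.1% of all occupied genes, and for 82 of 82 in U937, against 91.6%. The 4 that were not shared were those of RPL29 (2185 bp), RPS16 (1027 bp), RPS4X (479 bp) and RPL3L (340 bp), and RPL29 and RPS16 had a further peak over the TSS that was shared.

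Members were wider in MV4-11 than in U937 at 60 of 82 genes (73.2%), against 64.8% of all genes occupied in both lines, and narrower at 22. The median ratio of MV4-11 over U937 width was 1.25 (1.09 to 1.39) for members, 1.14 for 9390 other genes and 1.01 for 70 mitochondrial ribosomal protein genes. The members' interval held the median of the other genes, so the members' ratio could not be told apart from theirs. Among the largest ratios were those of RPL13A (6.67), RPL18 (6.11) and RPL29 (5.84), and the smallest were those of RPL39L (0.478), RPL14 (0.482), RPS15 (0.569) and RPL13 (0.577). In RPL13A, RPL18 and RPL29 the widest MV4-11 peak was not the peak over the TSS. Their TSS peaks had 1447 and 1159 bp (RPL13A), 1040 and 832 bp (RPL18) and 734 and 374 bp (RPL29) in MV4-11 and U937. With the peak over the canonical TSS the members' median ratio was 1.13 (1.06 to 1.27). A ratio of at least 2 was seen at 14 members (17.1%), against 14.7% of other genes, and 2 members were at least 2 times wider in U937. Across the 82 members the widths in both lines had a Spearman rho of 0.549, and across other genes one of 0.517, with the points of a line sharing 1 library.

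Where a peak lay over the TSS in both lines, at 79 members, overlap over union had a median of 70.3%, against 72.2% for 7141 other genes. Upstream edges lay a median of 192 bp apart in members and 133 bp in other genes, and were within 100 bp of each other in 25.3% against 42.4%. Downstream edges lay 126 bp apart in members and 155 bp in other genes, and were within 100 bp in 43.0% against 37.6%. Across the 79 members the positions of the upstream edges in both lines had a Spearman rho of 0.637 and those of the downstream edges one of 0.494, so distance and rank order did not point to the same edge as the more variable.

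The other lists gave a scale for these values. All 22 other TOP mRNA genes, among them EEF1A1, TPT1 and RACK1, were occupied in both lines, and their widest peaks had a median of 1499.5 bp (MV4-11) and 1155.5 bp (U937). All 18 ribosome biogenesis genes, among them NCL and FBL, were occupied in both, with 1386.5 and 1112 bp. Mitochondrial ribosomal protein genes were occupied in 75 of 78 in MV4-11 and 71 of 78 in U937, with 959 and 946 bp. Proteasome genes were occupied in 36 and 34 of 39, with a median of 893.5 bp in MV4-11 and a median between 715 and 1060 bp by its interval in U937. Most genes of each of these lists were thus occupied in both lines, as most ribosomal protein genes were. The TOP and biogenesis lists had medians above those of members in both lines, with overlapping intervals.

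ZNF217 peaks were also frequent just past the end of members, a comparison chosen after the data were seen. Of occupied members with a canonical transcript of 3 kb or longer, 39 of 66 (59.1%, 46.3 to 71.0%) had a peak within 1 kb of the canonical 3′ end in MV4-11, against 17.7% of all such genes and 38.1% (35.7 to 40.6%) of other genes of 3 to 8 kb. In U937, 20 of 64 (31.3%, 20.2 to 44.1%) did, against 8.89% and 19.1% (17.0 to 21.4%). In U937 the members' interval included the share of these other genes with 500 bp (18.8%, 10.1 to 30.5%, against 14.2%) or 2 kb (37.5%, 25.7 to 50.5%, against 28.6%) on each side and with peaks of at least 400 bp (28.6%, 17.9 to 41.3%, against 17.9%), so the difference in U937 depended on these settings. The median canonical transcript was 5136 bp in members of this length and 5270.5 bp in the genes of 3 to 8 kb. Mitochondrial ribosomal protein genes were at 14.5% in MV4-11 and 3.39% in U937, proteasome genes at 9.09% and 6.45%, other TOP mRNA genes at 33.3% and 4.76%, and ribosome biogenesis genes at 44.4% and 5.56%. The intervals of the TOP list (14.6 to 57.0% and 0.120 to 23.8%) overlapped those of members in both lines. So did those of the biogenesis list (21.5 to 69.2% and 0.141 to 27.3%), so members could not be told apart from these lists.

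The share was highest beyond the end. At 500 bp past it, 48.5% of members were under a peak in MV4-11, against 18.2% of other genes of 3 to 8 kb, and 14.1% against 9.23% in U937. At the end itself the shares were 24.2% against 13.8% in MV4-11 and 7.81% against 6.15% in U937.

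**Figure D4:**
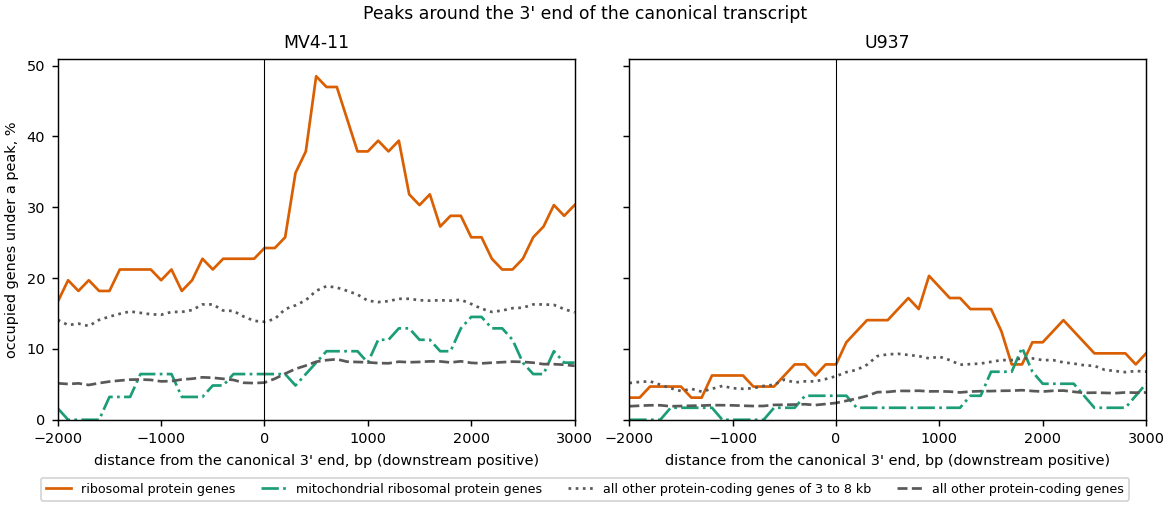
Share of occupied genes with a canonical transcript of 3 kb or longer under a ZNF217 peak, in percent, at each distance in bp from the canonical 3′ end, downstream positive. Ribosomal protein genes reach 48.5% at 500 bp past the end in MV4-11, above other genes of 3 to 8 kb at 18.2%.

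Some of these peaks lie near other starts, and the shares were therefore counted again without them. The starts counted were those of protein-coding transcripts and the gene-level start of each long noncoding RNA gene, without other gene types. With a peak over 1 kb from every such start of other genes, 26 of 66 members (39.4%, 27.6 to 52.2%) were left in MV4-11, against 23.5% of other genes of 3 to 8 kb, and 10 of 64 (15.6%, 7.76 to 26.9%) in U937, against 9.88%. With a peak over 1 kb from every TSS of the same gene, 29 of 66 (43.9%) were left in MV4-11, against 29.6%, and 18 of 64 (28.1%) in U937, against 14.4%. The members' interval included the share of the other genes in U937 in the first of these counts. In that count ribosome biogenesis genes were at 16.7% in MV4-11 and 0.0% in U937, and other TOP mRNA genes at 28.6% and 4.76%. In the count away from TSSs of the same gene, ribosome biogenesis genes were at 44.4% and 5.56%, and other TOP mRNA genes at 23.8% and 4.76%.

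Named examples of peaks past the end were RPL13 (3218 bp in MV4-11 and 896 bp in U937), RPL35 (2359 and 751 bp), RPL15 (870 and 639 bp) and RPS9 (885 and 671 bp), none of which lay within 1 kb of a counted start of another gene. RPL3 had peaks of 3230 and 3615 bp that began near its end, and RPS19 had peaks of 2249 and 2189 bp over its end. RPS14 (1136 bp), RPL35A (1114 bp), RPS23 (1173 bp) and RPL12 (1455 bp) had such a peak in MV4-11 and none in U937. Over all members of this length, RPL3L without a promoter peak in U937 included, 20 had an end peak in both lines, 19 in MV4-11 only and RPL32 in U937 only. Of 46 unique end peaks in MV4-11, 22 overlapped a U937 peak, and of 24 in U937, 23 overlapped an MV4-11 peak.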

How the data were processed

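Libraries were made with a commercial CUT&Tag kit. Per the submitters' processing notes and the study's methods, the authors aligned reads to hg38 with Bowtie2 2.4.4 and called peaks in each library with MACS3 3.0 at a q threshold of 0.01. The deposited files hold other values than signal or counts, namely the chromosome, start and end of each peak in bp. Use of IgG as control, duplicate removal and blacklisting are not given in the sources used here, nor is the counting base of the start, which leaves 1 bp of uncertainty.

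Positions on chromosomes 1 to 22 and X were compared with GENCODE 44 in pandas 2.3.3 under Python 3.11.15, with SciPy 1.17.1, NumPy 2.4.6 and pysam 0.24.0, and plotted with Matplotlib 3.10.9. Shares have exact (Clopper-Pearson) and medians binomial order-statistic intervals at the 95% level. No p-value was computed, since each line has 1 library. The measures were tested on simulated peaks. Members, lists and rules were chosen with earlier results of these data known. Named genes were those not occupied in both lines, the 5 widest and narrowest, the 12 largest sums among members with more than 1 peak, the 5 largest and smallest ratios and offsets, unshared widest peaks, and genes named by role, with the 3′ end examples added after their values were seen. Single values of 5 members that meet these rules are not reported here, while counts and medians include them, except the Diamond-Blackfan set and the plots of single genes. Alternatives were other windows, TSS sets, peak filters, merging, members and overlap rules.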

Additional observations from a re-analysis of the deposited data

How the results depend on the processing

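No paired analysis was possible because each line has 1 library, and no library could be left out for the same reason. Of 145 values recomputed under other settings, 127 stayed within the interval of the reported value or within 1.5 times the reported count, 18 moved and 0 reversed. Only an offset or a ratio whose reported interval left out 0 or 1 could count as reversed, so most values could not. The MV4-11 median offset, whose interval held 0, went from -33 bp to 4 bp with a window of 3 kb. Counts of ribosomal protein genes with more than 1 promoter peak (32 in MV4-11, 18 in U937) became 56 and 31 with a window of 3 kb, and 13 and 6 with the canonical TSS only. The shares of other genes were not computed with these settings. The median summed width was 1439.5 bp in MV4-11. Sharing of MV4-11 promoter peaks (79.9%) was 88.6% with lists of equal length, 61.9% with reciprocal overlap of 50%, and 65.2% with a window of 3 kb. Sharing of U937 peaks (98.1%) was 77.7% with reciprocal overlap of 50% and 100% within 500 bp. Shares over all promoter peaks were not computed with these sharing settings, so these values are not compared with other genes.

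The width of members over that of other occupied genes was 1.07 in MV4-11 and 1.06 in U937, with a window of 3 kb it was 1.19 (1.02 to 1.38) and 1.12 (0.971 to 1.31), and with the peak over the canonical TSS it was 0.983 and 0.995. For the 3′ end, members were at 71.2% in MV4-11 with 2 kb on each side, and in U937 at 37.5% (25.7 to 50.5%) with 2 kb and at 18.8% (10.1 to 30.5%) with 500 bp. Other genes of 3 to 8 kb were at 49.8% in MV4-11 and 28.6% in U937 with 2 kb, and at 30.2% and 14.2% with 500 bp. The U937 intervals of members thus included the other genes' share with both windows, and also with peaks of at least 400 bp. In MV4-11 members were at 53.0% (40.3 to 65.4%) with 500 bp. With peaks of at least 400 bp they were at 55.4% (42.5 to 67.7%) in MV4-11, against 34.6% of the other genes. With lists of equal length they were at 49.2% (36.4 to 62.1%) in MV4-11, against 31.5%. The 3′ end settings and the TSS peak were chosen after seeing the data. Depth is unknown, so a missing peak may be a peak below the calling threshold, and effects of the line and of its library cannot be told apart.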
